A study of Mus musculus with 6 samples.

Results

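Interferon response and RNA sensing genes form the cell's alarm against foreign or misplaced nucleic acid. The 36 genes described here were chosen by symbol from a fixed list of sensors, adaptors, transcription factors and effectors of this response, and each of the 36 was found among the 30619 gene rows of the deposited count table. The libraries came from mouse hearts at E12.5, in mid-gestation, described as mixed embryonic cardiac cells. There were 3 libraries labelled CKO, from mice named TRIM28CKO in the design, whose genotype label reads TRIM28 knockdown, and 3 control libraries labelled WT. Neither a driver of the loss of Trim28 nor the allele, the strain or the number of hearts in a library is given in the sources used here.

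Cytosolic receptors of the RIG-I family bind double-stranded or uncapped RNA and signal through MAVS at the mitochondrial surface, while STING relays the sensing of cytosolic DNA. Both lead to IRF3 and to type I interferon, which acts through its receptor on the cell surface. Many antiviral genes that interferon induces carry the interferon-stimulated response element in their promoters. TRIM28 is a co-repressor that silences endogenous retroviruses in several cell types, and transcripts of such elements can be a source of double-stranded RNA. The question of the comparison was how these genes were expressed in hearts with the CKO label and in controls.

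The 6 libraries held between 34400841 and 39763233 counts. Trim28 itself was at 172, 314 and 165 CPM (each count scaled to a fixed library size and adjusted between libraries) in CKO library 1, the library labelled CKO 2 and CKO library 3, against 305, 391 and 443 CPM in control libraries 1, 2 and 3 (log2 fold change -0.81, SE 0.34, edgeR adjusted p = 0.339). The library labelled CKO 2 thus lay within the range of the controls and is named by its label throughout. Its values also set that library apart for several genes below, so the fold changes of those genes are also given without it. Heart muscle markers were abundant in each library, with Tnnt2 between 110038 and 132511 counts. Xist, expressed from the inactive X chromosome, had 15232, 7 and 4 counts in CKO and 24633, 36330 and 17569 in control libraries, while Ddx3y, carried on the Y chromosome, had 1382, 2597 and 2626 counts in CKO and 1153, 0 and 1604 in controls. CKO library 1 and control libraries 1 and 3 thus held both transcripts. A ribosomal RNA row took 0.563% to 0.79% of the counts in CKO and 0.126% to 0.522% in control libraries. The ribosomal share thus parted the groups, so a fit with it as a covariate cannot separate it from the CKO label, and its part was not tested. The part of sex in the results was not tested beyond the fits with Y-linked expression as a covariate, given with the called genes. Because the libraries came from mixed cardiac cells, a change in the number of cells of a type and a change in RNA per cell cannot be told apart.

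The promoters below show this element for the genes on which the results turn. They are the 250 bases before to 50 after the start in RefSeq on GRCm38.p6, printed 5′ to 3′ on the gene's strand. Capitals mark each match, on either strand, to GAAA, any 2 bases and GAAA, the core letters of the interferon-stimulated response element. Oas3 and Cxcl10 are the 2 genes of the group that passed the test between CKO and control hearts. Isg15 and Bst2 were added after their values were seen, since they stood out in the library labelled CKO 2.
Oas3, chr5:120777610-120777909, minus strand: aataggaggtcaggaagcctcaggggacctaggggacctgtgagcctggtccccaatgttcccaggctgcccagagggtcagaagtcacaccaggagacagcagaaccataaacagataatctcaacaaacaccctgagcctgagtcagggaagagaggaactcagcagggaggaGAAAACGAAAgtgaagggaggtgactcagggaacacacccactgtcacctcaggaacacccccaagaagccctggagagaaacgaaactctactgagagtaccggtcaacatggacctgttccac
Cxcl10, chr5:92348840-92349139, minus strand: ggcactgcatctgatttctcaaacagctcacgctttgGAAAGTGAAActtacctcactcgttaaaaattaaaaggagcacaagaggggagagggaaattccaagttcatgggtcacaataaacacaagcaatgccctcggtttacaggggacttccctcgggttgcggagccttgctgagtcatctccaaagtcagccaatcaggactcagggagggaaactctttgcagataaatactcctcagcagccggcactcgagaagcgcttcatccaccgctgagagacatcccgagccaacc
Isg15, chr4:156200769-156201068, minus strand: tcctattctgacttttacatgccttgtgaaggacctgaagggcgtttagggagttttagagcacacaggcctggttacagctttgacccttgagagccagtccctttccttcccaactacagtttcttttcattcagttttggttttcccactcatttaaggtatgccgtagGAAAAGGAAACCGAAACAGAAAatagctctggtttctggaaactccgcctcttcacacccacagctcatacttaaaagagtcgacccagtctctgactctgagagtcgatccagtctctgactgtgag
Bst2, chr8:71537423-71537722, minus strand: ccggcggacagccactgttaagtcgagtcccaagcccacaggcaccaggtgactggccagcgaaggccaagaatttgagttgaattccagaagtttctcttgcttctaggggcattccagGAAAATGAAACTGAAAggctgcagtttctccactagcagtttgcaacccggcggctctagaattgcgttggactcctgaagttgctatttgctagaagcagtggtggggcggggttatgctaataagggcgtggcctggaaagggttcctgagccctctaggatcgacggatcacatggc

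In Oas3 the match began 75 bases before the start, and in Cxcl10 213 bases before it. Isg15 held 3 overlapping matches, which began 78, 72 and 66 bases before the start, and Bst2 held 2 overlapping ones at 130 and 124. Promoters were in the reference table for 26 of the 36 genes, and 14 of these 26 (53.8%) held the letters, against 3.99% of all 27025 genes in the table. Besides the 4 genes printed, the 14 were Ifit1, Ifit3, Oas1a, Rsad2, Gbp2, Gbp3, Stat2, Ddx58, Ifih1 and Eif2ak2. The letters TTCNNNGAA of the gamma-activated site, a further interferon-responsive element, were in the promoters of 7 of 26 genes, against 9.55% of all genes in the table. In Bst2 such a match overlapped the first response element. A match describes the letters in this window and shows no binding.

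All 36 genes were detected in these hearts, but most at a low level. Each of the 36 had at least 1 count in each of the 6 libraries, as did 62.7% of all rows of the table, and 27 had at least 10 counts in each library. The number of these genes with at least 10 counts was 34, 36 and 33 in the CKO libraries and 31, 31 and 30 in the controls. The filter on low counts, which asks for about 0.265 CPM in 3 libraries, kept 34 genes. Of these, 6 reached it in all 3 CKO libraries but in fewer than 3 controls, and none the other way round. Neither this pattern nor the number with at least 10 counts by library was counted over all genes. The 6 were Ifit1, Oas2, Oas3, Cxcl10, Dhx58 and Usp18, so the 34 tested genes were in part selected by high CKO values, and counts over them are descriptions. Oas1a reached it in fewer than 3 libraries of each group. Mx1 and Zbp1 did not pass. Mx1, an antiviral GTPase gene, had 2, 16 and 7 counts in CKO and 1, 6 and 9 in control libraries. Zbp1, a sensor of left-handed nucleic acid that can start cell death, had 2, 20 and 1 counts in CKO and 5, 1 and 7 in controls. In both genes the library labelled CKO 2 held the most counts.

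Levels per length differed widely within the group. The mean over 6 libraries ran between 0.0472 CPM per kilobase of exon for Zbp1 and 15.97 for Bst2, with a median of 0.601 over the 36 genes and 4.08 over all 17557 tested genes. In 28 of the 36 genes the level was below the median of the tested genes. The highest levels belonged to Bst2, a membrane protein that tethers budding virus particles, Irf3 (10.9 CPM per kilobase), the transcription factor that sensors activate, the adaptor gene Mavs (10.2) and Trim25 (9.57), a ubiquitin ligase that acts in RIG-I signalling. The kinase gene Eif2ak2 (5.77) and the RNA editor gene Adar (4.66), and the effectors Ifi27 (6.15) and Ifit2 (4.23), followed. The lowest were Zbp1, Mx1 (0.0492) and Oas3 (0.0827).

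**Figure D1:**
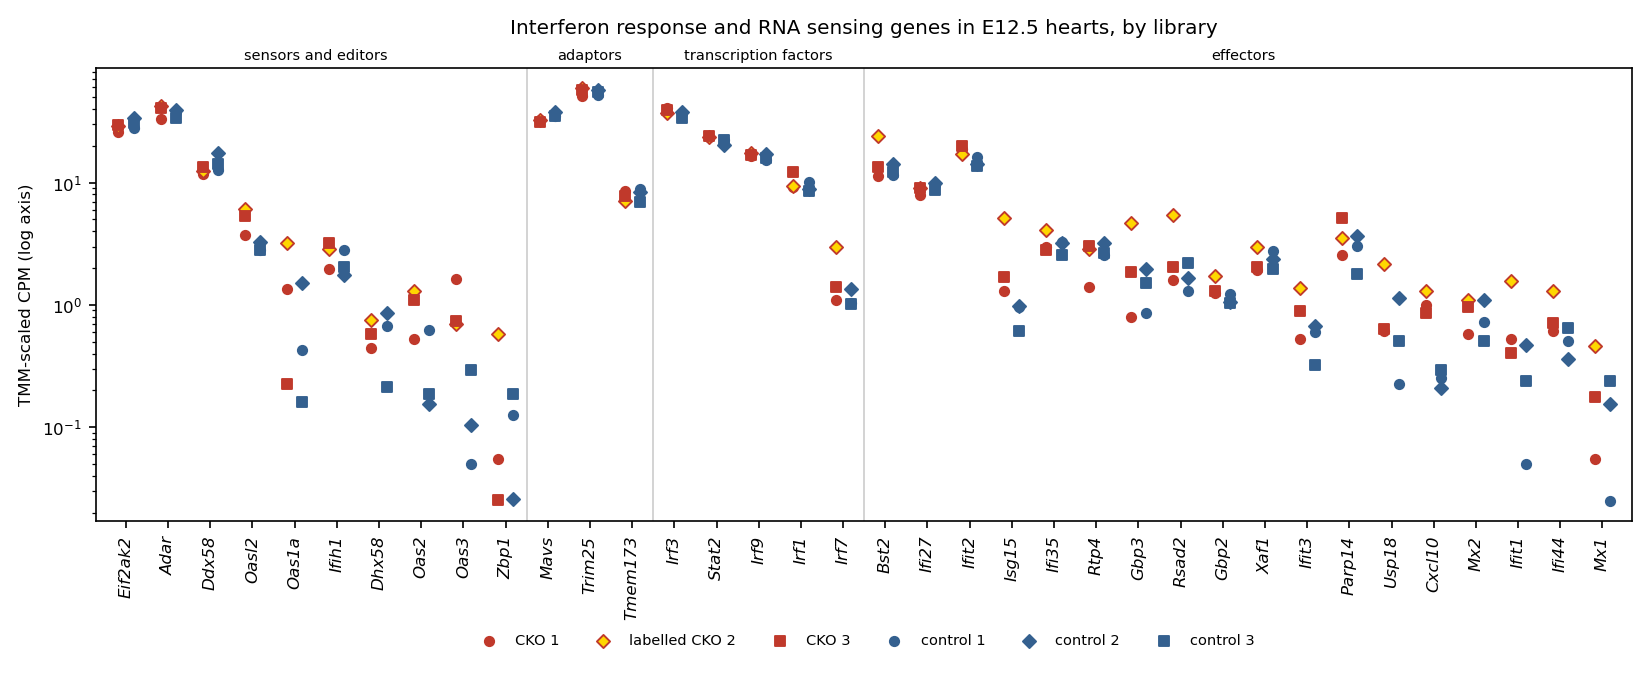
CPM of each of the 36 genes (log axis) in the 3 CKO libraries (red, the library labelled CKO 2 filled yellow) and the 3 control libraries (blue), ordered by role and by level per length. Eif2ak2, Adar and the adaptors lie at similar levels in all libraries, whereas the sensors Oas1a, Oas2, Oas3 and Zbp1 vary widely between them. Isg15, Rsad2, Gbp3, Usp18 and Ifit1 are highest in the library labelled CKO 2.

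Of the 34 tested genes, 2 rose and none fell in CKO hearts. Among all tested genes, 3.03% were called higher and 1.07% lower, 4.1% in either direction, and the 2 of 34 lie close to that background. At an unadjusted p under 0.05 there were 7 of the 34, all with higher values in CKO and none with lower, while 17.8% of all tested genes reached that level in either direction. DESeq2 called 4 higher, against 4.23% of all genes it tested, and none lower, against 1.86%. By limma-voom 2 were higher, against 2.82% of all genes, and none lower, against 1.04%. With 1 library left out, Oasl2 alone was called higher without CKO library 1 (against 2.23% of all genes), and Oas3 alone without CKO library 3 (1.49%) or control library 3 (1.4%). There were 3 calls without the library labelled CKO 2 (5.57%), and none without control library 1 (1.41%) or 2 (1.72%). In 7 of the 34 each CKO library lay above each control, against 11.5% of all tested genes. Both called genes passed the filter on low counts through the CKO libraries, since each reached it in only 1 control. Nothing in the labels says that the libraries came from separate litters or pools, so the p-values measure only the spread between these libraries. The 2 called genes were Oas3, one of the synthetases that activate RNase L upon binding double-stranded RNA, and Cxcl10, a chemokine that attracts T cells and natural killer cells. The median log2 fold change over the 34 genes was 0.31, against 0.00 over all tested genes. Of the 34 values 27 were positive, against 8918 of 17557 over all tested genes. Without the library labelled CKO 2 the median was 0.11 and 21 of the 34 were positive.

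Oas3 (ENSMUSG00000032661.9, mm10 chromosome 5, 120753098 to 120777661, minus strand) had 59, 24 and 29 counts in the CKO libraries, against 2, 4 and 11 counts in the controls. Each CKO library lay above each control. Mean levels were 1.02 ± 0.527 CPM in CKO and 0.149 ± 0.128 CPM in controls (SD, n = 3 each). Oas3 was higher in CKO by 2.76 on the log2 scale (SE 0.65, edgeR adjusted p = 0.0181), and 2.96 without the library labelled CKO 2 (adjusted p = 0.00506). It was not called without CKO library 1 (log2 fold change 2.25, adjusted p = 0.0979), control library 1 (2.34, 0.106) or control library 2 (2.57, 0.0968). With the ribosomal share or Y-linked expression as a covariate the log2 fold change was 2.99 or 2.92, with adjusted p = 0.439 and 0.112.

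Cxcl10 (ENSMUSG00000034855.13, mm10 chromosome 5, 92346638 to 92348889, minus strand) had 36, 45 and 34 counts in the CKO libraries, against 10, 8 and 11 counts in the controls. The groups did not overlap, and the library labelled CKO 2 was the highest. The means were 1.05 ± 0.23 CPM in CKO and 0.251 ± 0.043 CPM in controls (SD, n = 3 each), and the log2 fold change was 2.05 (SE 0.50, edgeR adjusted p = 0.0235). Leaving out 1 library kept the log2 fold change between 1.87 and 2.18, but the gene was called only without the library labelled CKO 2 (adjusted p = 0.0449). In the other 5 such fits the adjusted p was 0.051 without CKO library 1, 0.0555 without CKO library 3, and 0.0949, 0.107 and 0.0853 without control libraries 1, 2 and 3. The covariate fits gave 2.04 (adjusted p = 0.485) for the ribosomal share and 1.87 (adjusted p = 0.171) for Y-linked expression. Cxcl10 shares 133 exon bases with Art3 on the opposite strand. Art3 was at 26.2, 18.9 and 22.7 CPM in CKO and 14.6, 19.6 and 18.2 CPM in controls (log2 fold change 0.38, adjusted p = 0.117), and whether the counting used strand is not given.

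The other oligoadenylate synthetase genes among the 36 were also at higher mean levels in CKO but did not pass. Oasl2, which encodes a synthetase-like protein, was at 3.75, 6.04 and 5.31 CPM in the CKO libraries and 2.81, 3.27 and 2.8 CPM in the controls. Its groups did not overlap, and the log2 fold change was 0.76 (SE 0.22, adjusted p = 0.0516). It was called without CKO library 1 (0.92, adjusted p = 0.0209) and by DESeq2 (adjusted p = 0.0361), but without the library labelled CKO 2 it was at 0.62 (adjusted p = 0.106). Oas2 had 19, 45 and 43 counts in CKO and 25, 6 and 7 in controls (log2 fold change 1.56, SE 0.55, adjusted p = 0.128, and 1.31 without the library labelled CKO 2), and CKO 1 lay below control library 1. Oas1a varied most within groups. It had 49, 111 and 9 counts in CKO and 17, 58 and 6 in controls, with a log2 fold change of 1.14 and an SE of 1.09 (adjusted p = 0.692). Without the library labelled CKO 2 this was 0.13 (adjusted p = 0.964). Its biological coefficient of variation, the spread between replicates beyond counting noise, was 0.909, against 0.32 for genes of its level, and it has close paralogs among which reads may be split.

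None of the RNA receptors, nor PKR or ADAR, passed the test. Ddx58, which encodes RIG-I, was at 11.7, 12.3 and 13.3 CPM in CKO and 12.6, 17.4 and 14.1 CPM in controls (log2 fold change -0.24, SE 0.13, adjusted p = 0.342). Ifih1, which encodes MDA5, the receptor of long double-stranded RNA, was at 1.96, 2.88 and 3.18 CPM in CKO and 2.81, 1.77 and 2.06 CPM in controls (0.27, SE 0.27, adjusted p = 0.671). The ranges of the groups overlapped in both genes. Dhx58, which encodes the regulatory helicase LGP2, had 16, 26 and 23 counts in CKO and 27, 33 and 8 in controls (0.01, SE 0.52, adjusted p = 0.997). Eif2ak2, the kinase PKR that halts translation upon binding double-stranded RNA, was at -0.13 (SE 0.09, adjusted p = 0.494). Adar, whose product edits adenosines in double-stranded RNA and so keeps cellular RNA from being sensed, was at 0.06 (SE 0.09, adjusted p = 0.822). Adar shares 1365 exon bases with Chrnb2 on the opposite strand, which had 36 to 45 counts in CKO and 15 to 49 in control libraries.

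None of the 3 adaptors and 5 transcription factors passed the test either. Mavs was at 32.7, 32.7 and 31.5 CPM in CKO and 34.9, 37.4 and 35 CPM in controls. Each CKO value lay below each control, yet the log2 fold change of -0.15 (SE 0.07, adjusted p = 0.308) did not pass. Groups that part in this direction were found in 10.6% of all tested genes, and Mavs was the only one of the 34. Tmem173, which encodes STING, had a log2 fold change of -0.04 (SE 0.15) and Trim25 one of 0.03 (SE 0.07). Irf3 was at 0.11 (SE 0.08), Irf1, an early factor of the interferon gamma response, at 0.17 (SE 0.14), and Irf9 at 0.07 (SE 0.10). Irf9 shares 123 exon bases with Rnf31 on the same strand, whose log2 fold change was -0.02 (edgeR adjusted p = 0.931). On the opposite strand, Irf3 shares 88 exon bases with Bcl2l12 and Irf1 shares 135 with Gm17334. Stat2 was at 23.8, 23.7 and 23.9 CPM in CKO and 22.4, 20.2 and 22.1 CPM in controls, with no overlap and a difference of 0.14 on the log2 scale (SE 0.09, adjusted p = 0.423).

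Irf7, the factor that amplifies interferon production and is itself induced by interferon, was at 1.1, 2.99 and 1.39 CPM in CKO library 1, the library labelled CKO 2 and CKO library 3, against 1.03, 1.35 and 1.02 CPM in controls. The library labelled CKO 2 was at 2.15 times the next highest library, CKO library 3, and CKO library 1 lay within the control range. The log2 fold change was 0.67 (SE 0.38, adjusted p = 0.384), and 0.15 without that library (adjusted p = 0.895). Irf7 shares 45 exon bases with Phrf1 on the opposite strand, whose log2 fold change was -0.03 (adjusted p = 0.877).

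**Figure D2:**
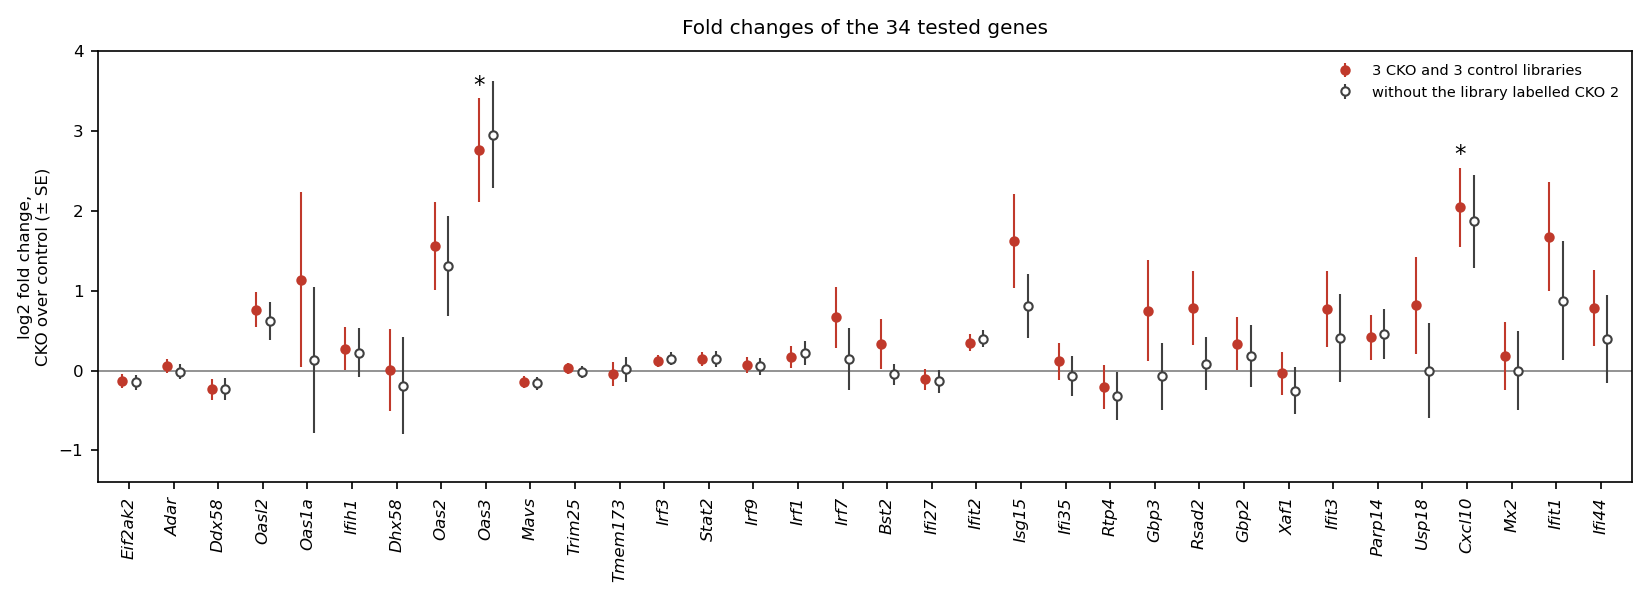
Log2 fold change, CKO over control, with its SE for the 34 tested genes, from all 6 libraries (filled) and without the library labelled CKO 2 (open); asterisks mark the 2 genes called with all libraries. Oas3 and Cxcl10 keep values near 3 and 2 without that library, while Isg15, Rsad2, Usp18, Gbp3 and Irf7 move toward 0. These last genes were highest in that library, so leaving it out must lower their values.

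Several classic interferon-stimulated effectors were highest in 1 library, the one labelled CKO 2, and did not pass the test between the groups. Isg15, a ubiquitin-like protein gene that interferon induces strongly, was at 1.3, 5.11 and 1.69 CPM in CKO library 1, the library labelled CKO 2 and CKO library 3 and 0.954, 0.987 and 0.614 CPM in controls. The groups did not overlap, and the library labelled CKO 2 was 3.02 times the next highest. The log2 fold change was 1.62 (SE 0.59, adjusted p = 0.183), and 0.81 without that library (SE 0.40, adjusted p = 0.252). DESeq2 called it (adjusted p = 0.0127). Usp18, the protease that removes ISG15 from proteins and restrains interferon signalling, had 22, 74 and 25 counts in CKO and 9, 44 and 19 in controls. Its log2 fold change was 0.82 (SE 0.61, adjusted p = 0.545), and -0.01 without the library labelled CKO 2.

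Rsad2, which encodes the antiviral enzyme viperin, was at 1.6, 5.4 and 2.02 CPM in CKO and 1.3, 1.66 and 2.19 CPM in controls. CKO 1 and CKO 3 lay within the control range, and the log2 fold change of 0.79 (SE 0.46, adjusted p = 0.431) was 0.09 without the library labelled CKO 2. Bst2 was at 11.2, 23.8 and 13.3 CPM in CKO and 11.6, 14.2 and 12.3 CPM in controls. With 407 to 820 counts a library it was counted more deeply than Isg15, Usp18, Rsad2 and Gbp3. Its log2 fold change was 0.34 (SE 0.31, adjusted p = 0.676) with and -0.05 (SE 0.13, adjusted p = 0.903) without that library, and its coefficient of variation was 0.253, against 0.11 for genes of its level. Gbp3, an interferon-induced GTPase gene, had 29, 160 and 74 counts in CKO and 34, 75 and 56 in controls, with a log2 fold change of 0.75 (SE 0.63) with and -0.07 without the library. Gbp2, of the same family, varied less, at 1.24, 1.71 and 1.29 CPM in CKO and 1.23, 1.06 and 1.04 CPM in controls (0.34, SE 0.33, adjusted p = 0.671, and 0.18 without the library).

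The Ifit genes, some of whose products bind RNA that lacks the cap marks of the host, did not share 1 pattern. Ifit1 had 19, 54 and 16 counts in CKO and 2, 18 and 9 in controls, so the library labelled CKO 2 was the highest, and CKO library 3 lay within the control range (log2 fold change 1.68, SE 0.68, adjusted p = 0.192, and 0.87 without that library). Ifit3 had 19, 47 and 35 counts in CKO and 24, 26 and 12 in controls (0.77, SE 0.48, adjusted p = 0.431, and 0.41 without the library labelled CKO 2), and reads may be split with its copy Ifit3b. Ifit2, by contrast, was higher in all 3 CKO libraries, at 18.8, 17.2 and 19.8 CPM, against 16.1, 14.1 and 13.6 CPM in controls. The library labelled CKO 2 was the lowest of the CKO libraries there. Its log2 fold change was 0.35 (SE 0.11, adjusted p = 0.0694), and it was called without that library (0.40, adjusted p = 0.0239). In that fit 3 genes of the group were called higher, namely Ifit2, Oas3 and Cxcl10, and none lower, against 5.57% higher and 2.97% lower among all genes tested in it.

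The remaining effectors did not pass. Ifi44 was at 0.78 (SE 0.47) and Parp14, an ADP-ribosyltransferase gene, at 0.41 (SE 0.28). Ifi35 was at 0.11, Mx2 at 0.18, Xaf1 at -0.04, Ifi27 at -0.11 and Rtp4 at -0.20, with adjusted p between 0.424 and 0.97 over these 7 genes. Ifi44 was highest in the library labelled CKO 2, with 22, 45 and 28 counts in CKO and 20, 14 and 24 in controls, and at 0.39 on the log2 scale without it. Mx2 is annotated as a polymorphic pseudogene in GENCODE M21.

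**Figure D3:**
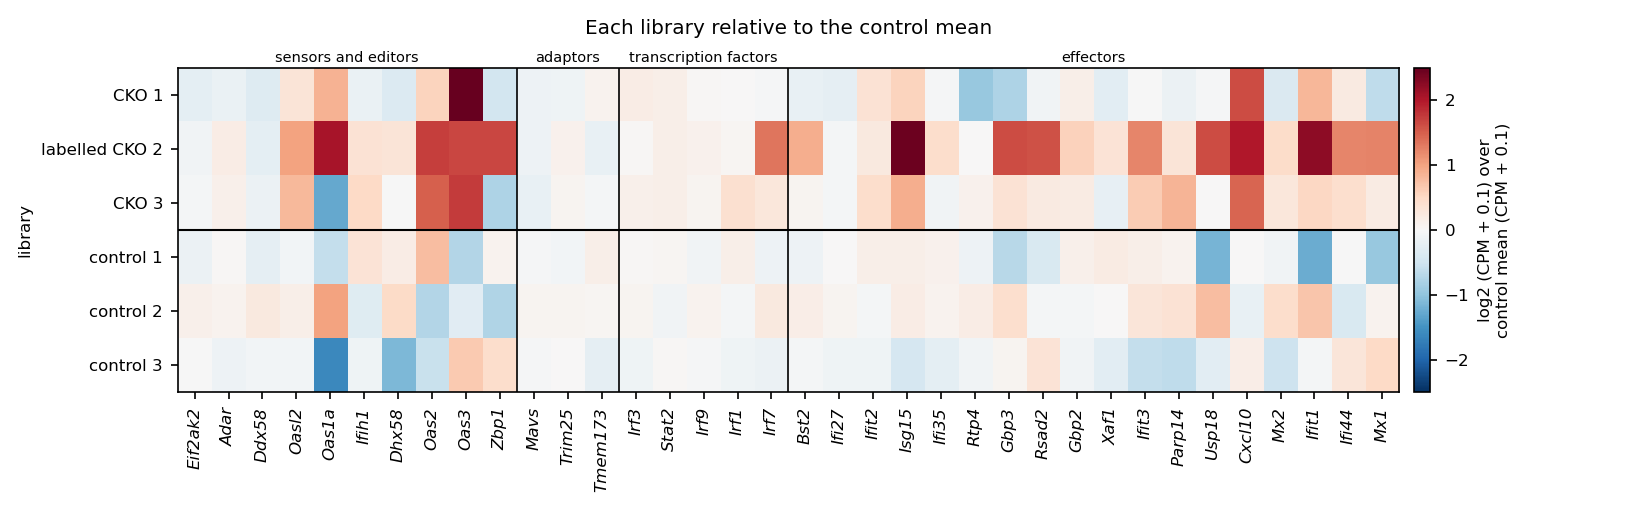
Log2 ratio of each library's CPM to the control mean, after adding 0.1 CPM to both, for the 36 genes in the 3 CKO and 3 control libraries; values beyond the ends of the colour scale, as for Oas3 in CKO 1, take the end colour. The row of the library labelled CKO 2 is the reddest across the effectors, and the adaptors and Irf3, Stat2 and Irf9 are pale in all rows.

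Counted over the group, the library labelled CKO 2 was the highest of the 6 in 22 of the 36 genes and the lowest in none. Control library 2 was the highest in 6, CKO 3 in 5, CKO 1 in 2, control library 1 in 1 and control library 3 in none. Among the 34 tested genes it was the highest in 20, against 16.9% of all tested genes, and at least 1.5 times the next highest library in 10, against 1.41%. Genes with low counts vary more, so the same was counted among tested genes with a mean under 10 CPM. Levels below that limit were not matched between the group and all genes. There the library labelled CKO 2 was at least 1.5 times the next highest in 9 of 24 genes of the group, against 3.3% of all such genes, and the highest in 16 of 24, against 20.3%. These are descriptions of 1 library with no replicate check. Log2 ratios to the control mean were taken over the 36 genes after adding 0.1 CPM to both. Their mean was 0.09, 0.80 and 0.27 in the libraries labelled CKO 1, 2 and 3, against -0.11, 0.10 and -0.14 in the controls. Their median was lower for CKO, at -0.03, 0.45 and 0.17, against -0.00018, 0.09 and -0.09 in the controls.

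By role, 9 of the 12 genes with such a gap, Mx1 and Zbp1 included, were effectors. Of 18 effectors, the library labelled CKO 2 was at least 1.5 times the next highest in 9, and its median ratio to the mean of CKO 1 and CKO 3 was 1.73. In the 10 sensors and editors it was so in 2 genes, in the 5 transcription factors in 1, Irf7, and in the 3 adaptors in none. The summed CPM of the 18 effectors was 55.7, 89.7 and 66.7 in CKO and 55.5, 60.4 and 51.7 in controls. Of the 14 genes with the response element letters in their promoter, 7 were at least 1.5 times the next highest library there, as were 2 of the 12 tested genes without them. The genes were not chosen independently of such elements, and no test was made.

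For the steps around these genes, lists from the same pathway were read from the same fit. Interferon genes themselves had few counts. Of 11 interferon ligands, 4 were found among the rows analysed, and none of these had more than 4 counts in a library or passed the filter. Ifnb1, the interferon beta gene, had no count in any CKO library and 1 count in control library 3, and Ifng had 1 count, in control library 1. In the library labelled CKO 2 all 4 were at 0. Of 10 genes listed for interferon receptors and their signalling, none was called, with 1 higher and 1 lower at an unadjusted p under 0.05 and none by DESeq2 or limma-voom. Ifnar1, the receptor chain of type I interferon, was at 88, 89.7 and 85.8 CPM in CKO and 86.3, 83.9 and 88.4 CPM in controls. Jak2 (-0.20, adjusted p = 0.141) and Il10rb (0.20, adjusted p = 0.277) had the smallest p-values there.

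Among 19 further sensors and adaptors, Traf3 alone rose and none fell, against 3.03% higher and 1.07% lower among all tested genes. DESeq2 called 1 of the 19 and limma-voom none, and 3 higher and 1 lower had an unadjusted p under 0.05. Traf3, which links MAVS and other adaptors to the kinases of IRF3, was at 62.8, 53.5 and 64.8 CPM in CKO and 48.7, 49.8 and 52.2 CPM in controls (log2 fold change 0.27, SE 0.07, adjusted p = 0.0475). It was called without the library labelled CKO 2 (0.34, adjusted p = 0.0013) and in none of the other 5 fits that left out 1 library. The endosomal receptor genes Tlr7 (0.91, adjusted p = 0.121) and Tlr9 (1.28, adjusted p = 0.219) and the RIG-I cofactor gene Rnf135 (-0.37, adjusted p = 0.143) did not pass. Of 8 tested genes of nucleic acid clearance, none was called by edgeR, DESeq2 or limma-voom, with 1 lower at an unadjusted p under 0.05. The same held for 9 genes that restrain the response, with 1 higher and 2 lower at that level.

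Of 53 tested further interferon-stimulated genes out of 62, 1 rose and none fell, against 3.03% and 1.07% of all tested genes. DESeq2 called 2 higher and 1 lower and limma-voom none, and 4 higher and 4 lower genes had an unadjusted p under 0.05. That level was reached by 17.8% of all tested genes in either direction. The called gene was Tor3a, an interferon-responsive ATPase gene of the endoplasmic reticulum, at 8.31, 8.16 and 10.1 CPM in CKO and 5.6, 6.23 and 6.49 CPM in controls (0.54, SE 0.15, adjusted p = 0.0466). Among the 6 fits that left out 1 library it was called only without the library labelled CKO 2 (adjusted p = 0.0203). Isg20, an exonuclease gene, had 17, 29 and 22 counts in CKO and 4, 2 and 8 in controls (2.32, SE 0.68, adjusted p = 0.0571). The median over the 53 genes was 0.11. The library labelled CKO 2 was the highest in 24 of the 53, against 16.9% of all tested genes. It was at least 1.5 times the next highest in 7, against 1.41%. Among all tested genes with a mean under 10 CPM these shares were 20.3% and 3.3%. The 7 included Ifi47, Gbp6, Sp100 and Lgals3bp, which were named after their values were seen. Lgals3bp was at 6.71, 16.3 and 7.88 CPM in CKO and 7.35, 9.4 and 6.52 CPM in controls. Nlrc5, a regulator that interferon induces, from the list of restraining genes, had 10, 44 and 11 counts in CKO and 10, 1 and 2 in controls (2.36, SE 0.86, adjusted p = 0.138).

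Markers of other cell types differed between the groups too. Among all tested genes, 3.03% were called higher and 1.07% lower. Of 12 macrophage markers, 3 rose and none fell, the complement genes C1qa (0.67, adjusted p = 0.0132), C1qb (0.44, adjusted p = 0.038) and C1qc (0.62, adjusted p = 0.0107). By limma-voom 2 of the 12 were higher, against 2.82% of all genes. Without the library labelled CKO 2, edgeR called 5 higher, against 5.57%. Of the 6 fits that left out 1 library, C1qa was called in 2, C1qb in 1 and C1qc in 4. The summed level of the 12 was 137, 124 and 140 CPM in CKO and 108, 102 and 109 CPM in controls, so the groups did not overlap. In 8 of the 12 each CKO library lay above each control, against 11.5% of all tested genes. The library labelled CKO 2 had the lowest sum of the CKO libraries and was the highest of the 6 in 1 of the 12 markers. Each of the 12 had counts in each library. Of 8 markers of lymphoid and plasmacytoid cells, 4 were found among the rows, none passed the filter, and the most counts in a library were 9 in CKO and 14 in controls. Of 8 endothelial markers, 3 fell and none rose, namely Cdh5, Tek and Kdr, with a summed level of 1070, 1220 and 1044 CPM in CKO and 1251, 1314 and 1307 CPM in controls. Without the library labelled CKO 2, 5 of the 8 were called lower, against 2.97% of all genes. Cdh5 was called in 3, Tek in 6 and Kdr in 1 of the 6 fits with a library left out. Of 8 cardiomyocyte markers, Myh6 (0.33, adjusted p = 0.0103) and Myl4 (0.23, adjusted p = 0.0233) rose, the first called in 2 and the other in 1 of those fits. DESeq2, and edgeR without the library labelled CKO 2, each called 4 of these 8 higher and 1 lower. Over all genes DESeq2 called 4.23% higher and 1.86% lower. Of 8 erythroid markers none was called by edgeR, DESeq2 or limma-voom or reached an unadjusted p under 0.05. The part of these cell types in the levels of the interferon genes was not tested.

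**Figure D4:**
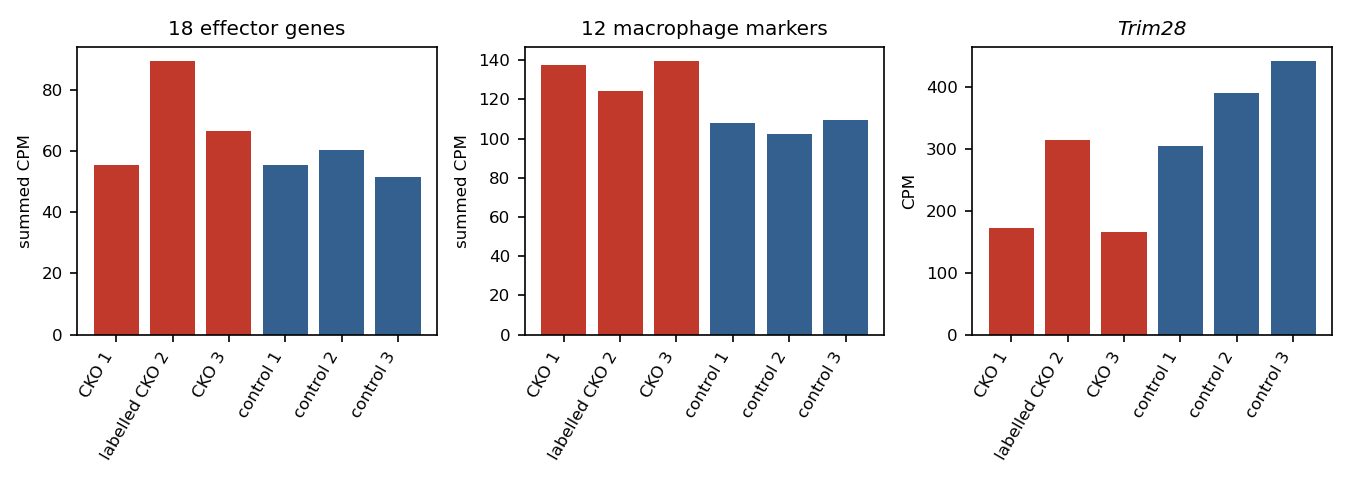
Summed CPM of the 18 effectors and of the 12 macrophage markers, and CPM of Trim28, in each library (red CKO, blue control; bars start at 0, 1 library each). The effector sum peaks in the library labelled CKO 2 at 89.7, the macrophage sum is above 120 in each CKO library and below 110 in each control, and Trim28 is lowest in CKO 1 and CKO 3.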

How the data were processed

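RNA-seq of polyA RNA from 3 CKO and 3 control heart libraries at E12.5 was deposited by the authors as raw read counts per gene, whole numbers that were not normalized. Per the submitters' processing notes, reads were placed on mm10. No aligner, counter, strand setting or rule for reads that match several genes is stated in the labels or the table. Of 30619 rows, 2017 symbols in which hyphens and other signs stood as dots were restored by the annotation, and 30152 rows matched 1 gene of GENCODE M21, which gave coordinates and exon lengths.

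Counts were scaled by TMM and genes filtered with filterByExpr (10 counts, 15 in total), which left 17557 genes. CKO was compared with control by edgeR 4.0.16 (quasi-likelihood, robust, two-sided, R 4.3.3), with Benjamini-Hochberg adjustment over all tested genes and a threshold of 0.05. The SE is the log2 fold change over the square root of F. CPM use the TMM-scaled library sizes. Alternatives were DESeq2 1.42.0, limma-voom 3.58.1, other scalings and filters, covariates, a replicate block and each library left out; a legacy quasi-likelihood fit was added after the data were seen. The procedure was tested on simulated data, with 50 genes of 0.5 to 5 CPM changed at each fold. It recovered 0% of 1.5-fold, 26% of 2-fold, 90% of 4-fold and 82% of 8-fold changes. When no gene was changed it made 5 calls. At such levels a gene that did not pass is therefore not shown to be unchanged.

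The 36 genes and the other lists were chosen with earlier results of these data known. All 36 could be named; from the other lists, the called genes and up to 4 more with the smallest p, and others only where said. Promoters were printed for called genes with the response element, others only where said. Same-numbered CKO and control libraries did not deviate together (correlations 0.00859, 0.0126 and 0.00494), so the numbers were not taken as pairs. Each pair of replicates differed by more than sampling noise.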

Additional observations from a re-analysis of the deposited data

How the results depend on the processing

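Of 569 comparisons of a single gene's log2 fold change with an alternative, 527 kept the direction and the side of the threshold, 21 changed sign, 12 lost a call and 9 gained one; the cause was not tested. The number of the 36 genes called higher, 2, was 4 by DESeq2, 5 with no filter on low counts, 1 with a filter of 1 CPM in 3 libraries (Oasl2, since Oas3 and Cxcl10 were not tested there), 0 with the ribosomal share or with Y-linked expression as a covariate, and 0 to 3 with 1 library left out. None was called lower in any setting. Over all genes, 532 were higher and 188 lower. With no filter these were 863 and 388, with the ribosomal covariate 53 and 3, and with the Y-linked covariate 272 and 35. DESeq2 gave 304 lower, and leaving out 1 library gave 255 to 1012 higher and 39 to 540 lower. The replicate block, although the numbers did not pair the libraries, gave 518 higher and 158 lower and 3 of the 36 genes, with Isg15 added (1.61, adjusted p = 0.0225).

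Sign changes were all in genes that were not called. With the ribosomal covariate Dhx58 was at -0.54, Ifi35 at -0.10 and Eif2ak2 at 0.0038, and with the Y-linked covariate Tmem173 was at 0.016. With 1 library left out, the log2 fold change lay between -0.38 and 0.38 for Dhx58, -0.049 and 0.50 for Mx2, -0.046 and 0.53 for Bst2, -0.0057 and 1.59 for Usp18, -0.068 and 0.22 for Ifi35, -0.072 and 1.15 for Gbp3, -0.25 and 0.086 for Xaf1, -0.017 and 0.082 for Trim25, -0.41 and 0.062 for Rtp4, -0.15 and 0.031 for Tmem173, and -0.015 and 0.15 for Adar. Low counts limit precision. Of the 36 genes, 9 had fewer than 10 counts in at least 1 library. The SE was also wide in genes with more counts, as for Ifit3 (0.48) and Ifi44 (0.47).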
